A study of Mus musculus with 2 samples.

Results

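The neurotrophin genes Bdnf, Ntf3 and Ntf5 and the receptor genes Ntrk2, Ntrk3, Ngfr and Sort1 were read in DNase-seq maps of mouse frontal cortex. They are 7 of 21938 protein-coding genes and hold 29 of 52546 promoter groups in the GENCODE vM21 annotation. The genes were taken by name, and everything within the gene body plus 10 kb upstream, here the span, was examined. A promoter group is a run of annotated transcription start sites of 1 gene whose neighbours lie within 500 bp of each other.

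DNase-seq sequences the cuts that the enzyme DNase I makes in nuclei, so stretches of DNA that the enzyme can reach collect many cuts. The study has 1 group, frontal cortex of male B6CASTF1/J mice aged 10 days, with 2 biological replicates. A label note mentions 3 males per sample without saying whether they were pooled, and both samples carry the same donor entry. The mice are a cross of C57BL/6J with a CAST strain, and no treatment, genotype contrast or second age is given. With 1 group there is no contrast to test, so all values are descriptions of 2 libraries, and differences between the libraries may be technical. A bulk tissue map also cannot tell a site open in few cells from a site weakly open in many.

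Neurotrophins are secreted proteins that keep neurons alive and shape their synapses. BDNF and the product of Ntf5 bind the receptor tyrosine kinase TrkB, encoded by Ntrk2, and the product of Ntf3 binds mainly TrkC, encoded by Ntrk3. Ngfr encodes the low-affinity receptor shared by all neurotrophins, and Sort1 encodes sortilin, its partner for proneurotrophins and a sorting receptor for BDNF. Rodent Bdnf is known for a row of short 5′ exons, each with its own promoter, all spliced to 1 coding exon, and promoter IV is the one best known for its response to neuronal activity. The Roman numerals used here follow the order of the annotated start sites, which is that of the textbook exons I to VIII.

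Some sequences that carried shared footprints are shown first, because the cleavage pattern within the strong sites is the finest detail in these data. Others that carried them, also in Ntrk3, are not shown. A footprint is a short stretch protected from cleavage inside accessible DNA, as bound proteins leave, and footprints here are those of the list type that both libraries have. Each sequence below is the GRCm38.p6 reference (C57BL/6J) on the strand of the gene, cut to DNA outside annotated exons, and capitals mark bases that lie inside footprints of both libraries. The 1st is the strongest site of Bdnf, an intronic site at chr2:109678181-109678400 just after exon III, with 68 bases in shared footprints. The 2nd is the DNA before the start of exon IV at chr2:109692236-109692435, where the shared footprint runs up to the last base before the start site. The 3rd is the site after exon VII at chr2:109694939-109695105.
Bdnf site after exon III: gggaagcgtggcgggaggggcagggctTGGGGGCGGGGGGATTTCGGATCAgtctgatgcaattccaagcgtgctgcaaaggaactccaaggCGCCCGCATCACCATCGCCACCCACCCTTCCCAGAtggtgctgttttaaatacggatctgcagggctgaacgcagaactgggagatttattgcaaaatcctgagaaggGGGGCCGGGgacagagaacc
Bdnf promoter IV: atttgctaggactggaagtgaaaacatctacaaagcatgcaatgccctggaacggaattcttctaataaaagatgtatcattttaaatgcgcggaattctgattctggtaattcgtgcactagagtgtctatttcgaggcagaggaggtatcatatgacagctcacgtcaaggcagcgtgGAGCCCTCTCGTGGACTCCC
Bdnf site after exon VII: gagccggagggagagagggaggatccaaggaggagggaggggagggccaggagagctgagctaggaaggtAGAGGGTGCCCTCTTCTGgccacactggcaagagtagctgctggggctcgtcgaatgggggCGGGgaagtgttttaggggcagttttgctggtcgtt

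The next sequences belong to the receptors. The Ntrk2 promoter sequence spans chr13:58806441-58806568, directly before the 1st start site of the gene. The Ntrk2 intron 13 sequence, chr13:59011561-59011800, and the intron 16 sequence, chr13:59092781-59093000, are sites deep in the gene, numbered by the introns of the coding transcript that starts at 58807697. The Ngfr sequence, chr11:95586301-95586480, and the Sort1 sequence, chr3:108328462-108328600, are the intronic sites of those genes that both libraries called.
Ntrk2 promoter: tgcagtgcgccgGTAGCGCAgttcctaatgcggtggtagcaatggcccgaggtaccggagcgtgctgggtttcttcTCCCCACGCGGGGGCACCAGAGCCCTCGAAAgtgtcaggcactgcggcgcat
Ntrk2 intron 13: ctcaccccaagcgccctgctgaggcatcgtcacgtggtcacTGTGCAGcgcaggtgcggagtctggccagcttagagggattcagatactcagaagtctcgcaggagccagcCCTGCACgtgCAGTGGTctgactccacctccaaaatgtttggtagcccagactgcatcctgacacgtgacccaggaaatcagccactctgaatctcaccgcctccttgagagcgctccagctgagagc
Ntrk2 intron 16: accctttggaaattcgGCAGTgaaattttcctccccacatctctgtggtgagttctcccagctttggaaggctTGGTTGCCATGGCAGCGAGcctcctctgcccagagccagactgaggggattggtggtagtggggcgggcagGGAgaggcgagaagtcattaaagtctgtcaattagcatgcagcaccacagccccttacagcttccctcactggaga
Ngfr intron 1: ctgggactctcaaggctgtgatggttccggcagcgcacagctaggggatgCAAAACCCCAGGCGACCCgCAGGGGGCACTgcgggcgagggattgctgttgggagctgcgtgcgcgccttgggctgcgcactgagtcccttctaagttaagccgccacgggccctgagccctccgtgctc
Sort1 intron 6: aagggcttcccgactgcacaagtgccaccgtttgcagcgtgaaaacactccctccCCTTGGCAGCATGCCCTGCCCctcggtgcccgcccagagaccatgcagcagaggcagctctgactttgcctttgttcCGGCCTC

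A promoter group was counted as open where a main peak of replicate 1 and a main peak of replicate 2 overlapped by at least 1 bp within 1 kb of one of its start sites. By this rule 6 of the 29 groups were open, beside 28.0% of all promoter groups. Bdnf had 2 of 8 open, Ntrk2 2 of 4, Ntrk3 1 of 11 and Sort1 1 of 2. Ntf3 with 2 groups, Ntf5 with 1 and Ngfr with 1 had none. Thus 4 of the 7 genes had an open promoter, where 54.7% of protein-coding genes did. At 15 of the 29 groups no base within 1 kb was listed in either library in the per-base tracks of false discovery rate (FDR), which hold bases with FDR under 0.05.

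**Figure D1:**
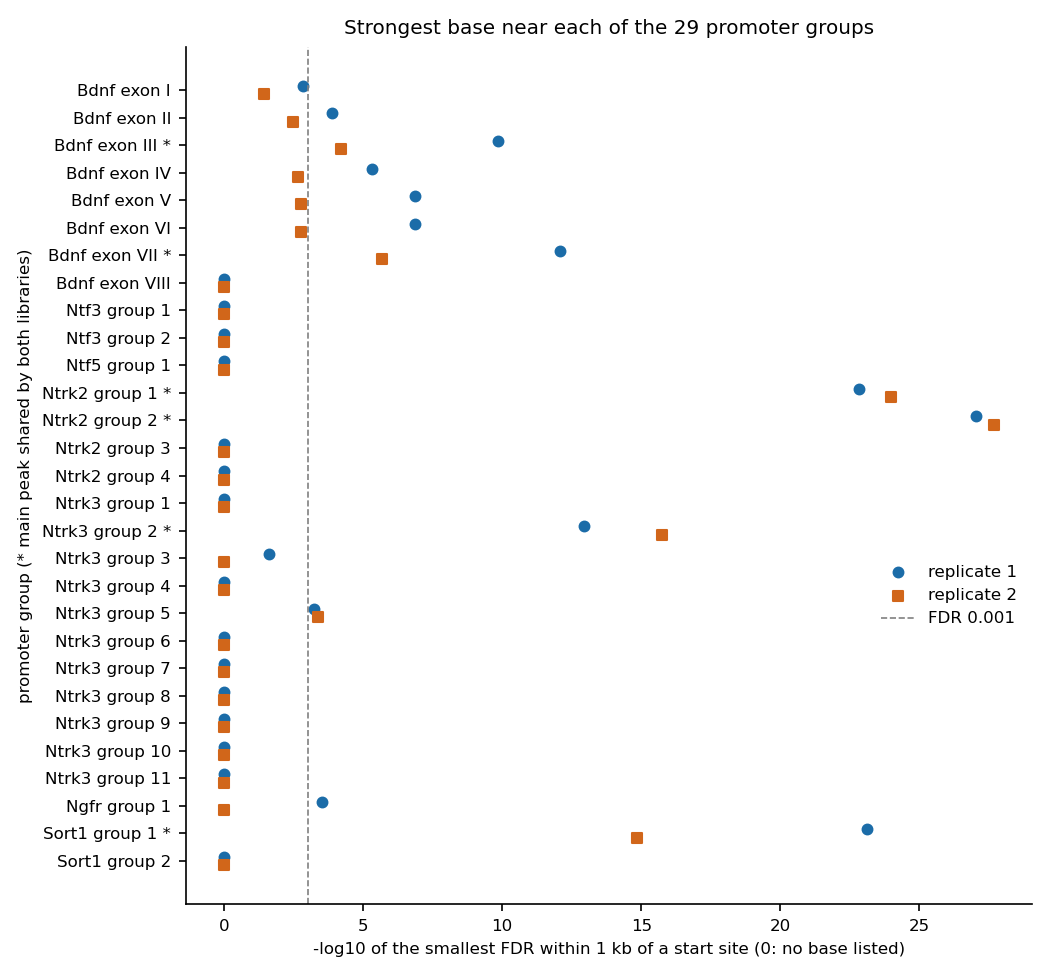
The horizontal axis gives −log10 of the smallest per-base FDR within 1 kb of a start site, and each row is 1 of the 29 promoter groups, with circles for replicate 1, squares for replicate 2 and a star for groups with a shared main peak. In replicate 2, Bdnf exons II, IV, V and VI lie just left of the dashed line at FDR 0.001, the Ntrk2 and Sort1 promoters lie far to its right in both libraries, and 15 groups sit at 0 in both.

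Peaks were deposited from 2 runs, a run on filtered alignments, whose stricter lists are the main peaks, and a run made separately from sequencing reads. In the read-derived run 12 of the 29 groups held a peak shared by both libraries, beside 30.8% of all groups. The added groups were 5 of Bdnf, for 7 of 8 in all, and 1 of Ntrk3, for 2 of 11 in all. Of 21938 genes, 1311 had more open groups in the read-derived run than in the main lists, 112 had fewer and 20515 had as many. Bdnf was the 1 gene with a gain of 5 or more. Such a gain needs at least 5 groups that were not open in the main lists, and the genes with that many were not counted. The read-derived lists are longer, with 50261 peaks in replicate 1 and 54759 in replicate 2. The main lists hold 39608 in replicate 1 and 45915 in replicate 2. With the looser lists of the run on filtered alignments, 6 of the 8 Bdnf groups were open. Windows of 1 kb around the crowded Bdnf start sites overlap, so 1 peak there can count for several groups. At exon V the shared read-derived peaks were those over the starts of exons IV and VI.

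Bdnf, on chromosome 2 from 109674700 to 109727007, had the most shared main peaks per 10 kb of the 7 genes in the main lists. Its span of 62.3 kb held 3 shared main peaks, or 0.481 per 10 kb, at the 72.0 percentile of protein-coding genes, whose median was 0.209. Ngfr was next with 0.346, and this order was not stable. Ngfr was above Bdnf with replicate 1 left out (0.692 in Ngfr, 0.642 in Bdnf), with replicate 2 left out (1.04 in Ngfr, 0.963 in Bdnf) and with 50% reciprocal overlap (0.346 in Ngfr, 0.321 in Bdnf). With 50 kb on each side, Ntf5 at 0.676, Sort1 at 0.338, Ntrk2 at 0.257 and Ngfr at 0.252 were all above Bdnf at 0.197. Replicate 1 had 6 main peaks in the span and replicate 2 had 4. The signal formed 2 clusters, one around exons I to III and one around exons IV to VII, with nothing near exon VIII.

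**Figure D2:**
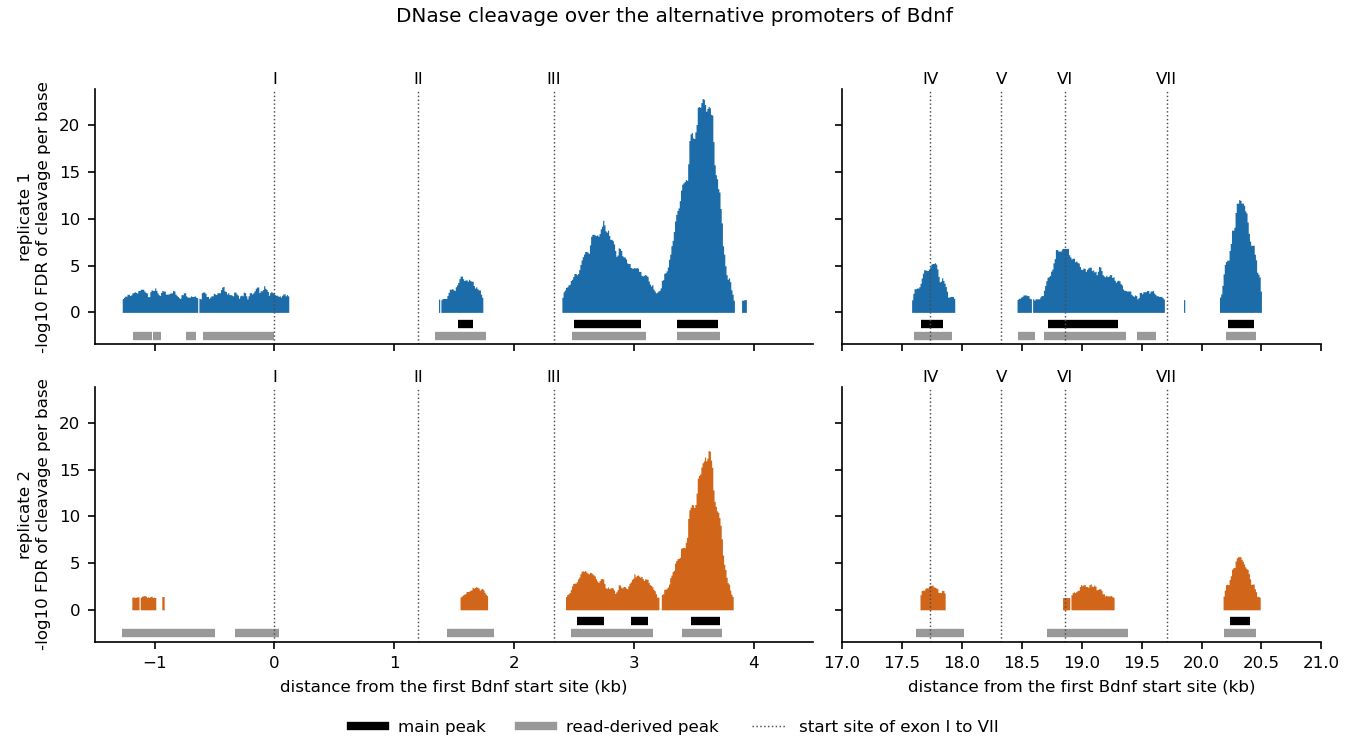
The vertical axis gives −log10 FDR of cleavage per base (largest value in each 10-bp bin) for replicate 1 above and replicate 2 below, against the distance in kb from the 1st Bdnf start site, with black bars for main peaks and grey bars for read-derived peaks. The highest summit, 22.9 in replicate 1 and 17.1 in replicate 2, lies after exon III and not on a start site, and replicate 2 has read-derived but no main peaks at exons I, II, IV and VI.

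The promoter of exon I, at 109674700, had no main peak in either library. The read-derived run had peaks in both, one that ended 3 bp before the start with a cleavage density of 0.556 in replicate 1, and one over the start with 0.421 in replicate 2. Cleavage density is the authors' depth-normalised value for a peak, and these densities ranked at percentiles 3.67 and 3.42 of their own lists. The smallest FDR within 1 kb was 0.00142 in replicate 1 and 0.0374 in replicate 2, so even replicate 1 was just short of the main list, all of whose peaks held a base at 0.000982 or lower. Hotspots, the broader enriched regions, lay over this start site in both libraries, with −log10 FDR 4.42 in replicate 1 and 3.68 in replicate 2. In replicate 1 the hotspot was 1608 bp wide, and 1095 bases within 1 kb were listed at FDR under 0.05. In replicate 2 there were 2 hotspots, of 802 and 583 bp, and 19 listed bases.

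Exon II starts at 109675897 for 3 transcripts. A main peak was called in replicate 1 alone, 338 bp downstream of the start, with a density of 0.704 at percentile 10.3. Replicate 2 had a read-derived peak there with a density of 0.583, and its smallest FDR within 1 kb was 0.00333. The start of the antisense gene Gm45346 lies 303 bp from the centre of this site, and cleavage carries no strand, so the site cannot be given to Bdnf alone.

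Exon III, starting at 109677032, was 1 of the 2 open Bdnf groups. Its main peak began 169 bp downstream of the start in replicate 1, with a density of 1.27 at percentile 41.5. In replicate 2 it began 195 bp downstream with a density of 0.823 at percentile 36.9. The shared peak thus lies in the intron after exon III in both libraries, below the median density of both lists.

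The strongest Bdnf site followed, 1214 bp from the exon III start and still in the 1st intron of the transcripts from exons I to III. Its density was 3.05 in replicate 1, at percentile 77.1, and 2.52 in replicate 2, at percentile 83.8. A single hotspot held this site and the exon III peak, with −log10 FDR 32.8 in replicate 1 and 32.4 in replicate 2. Its 3 shared footprints are the 3 capital runs of the 1st sequence, the longest from 109678273 to 109678307. A GC box (GGGCGG), the motif bound by SP-family factors, lies fully inside the 1st run, at 109678211.

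Exon IV starts at 109692436. The main peak over it, with a density of 0.866 at percentile 19.2, was called in replicate 1 alone. Replicate 2 held a read-derived peak over the start with a density of 0.635 at percentile 19.9, and its smallest FDR within 150 bp was 0.00225. Both libraries nevertheless shared a footprint there, from 109692416 to 109692435, in capitals at the end of the promoter IV sequence. The letters GCCCTCTCGTGG within it, at 109692418, match a 12-letter pattern of the insulator protein CTCF that was searched only after the sequences had been seen. The short form of the cAMP response element (CRE), TGACG, reads as CGTCA on this strand and lies upstream at 109692401, outside the shared footprint. This element is the known binding motif of CREB-type factors.

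Exon V, at 109693027, had no main peak of its own in either library. The main peaks counted within 1 kb of it in replicate 1 belong to exons IV and VI, the nearer one beginning 394 bp downstream. A read-derived peak of its own, 144 bp downstream, was called in replicate 1 alone, with a density of 0.439 at percentile 0.822.

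Exon VI, at 109693563, is the most CpG-rich of the Bdnf start sites. Its main peak, over the start, was called in replicate 1 alone, with a density of 1.04 at percentile 29.4. Replicate 2 had a read-derived peak over the start with a density of 0.596 at percentile 16.1. Its smallest FDR in replicate 2 was 0.00171 within 1 kb. A shared footprint lay 181 bp downstream.

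Exon VII has annotated starts at 109694409 and 109694469 and was the other open group. The shared peak lies in the intron beyond it, 452 bp after the second start in replicate 1 and 470 bp after it in replicate 2. Its density was 1.70 in replicate 1, at percentile 57.2, and 0.981 in replicate 2, at percentile 47.9. The 1st capital run of its sequence holds another match to the CTCF pattern, GCCCTCTTCTGG at 109695016, of which 11 bases lie in shared footprints. Neither library had a main peak on the exon VII starts themselves.

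Exon VIII, at 109709383, had no peak of either run, hotspot, footprint or listed base within 1 kb in either library. It also had the lowest CpG ratio of the Bdnf groups, 0.199.

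Across the Bdnf start sites, replicate 1 was thus above the main threshold at more places than replicate 2. Footprints in the span numbered 34 in replicate 1 and 16 in replicate 2, with 7 shared, so that 68.0% were of replicate 1. Among 7606 genes with 20 or more footprints over both libraries the median share of replicate 1 was 44.1%, and the share in Bdnf was at the 99.5 percentile. The other 6 genes together had 108 footprints in replicate 1 and 165 in replicate 2. Their main peaks numbered 20 in replicate 1 and 29 in replicate 2. Among them, Ngfr had 3 main peaks in replicate 1 and 2 in replicate 2, and Ntf3 had 1 and 0. Ntrk2, Ntrk3 and Sort1 had more main peaks in replicate 2, and Ntf5 had none. Footprints were more in replicate 2 at Ngfr (8 and 10) and Ntf3 (4 and 9) as well. Replicate 2 is the deeper library, by 1.64 times in the main lists and 1.65 times in the read-derived lists as judged from the smallest density steps. The densities of the 3 shared Bdnf peaks were 1.54, 1.21 and 1.73 times as high in replicate 1 as in replicate 2. Over all 31722 shared peaks this ratio had a median of 1.39, with 5th and 95th percentiles of 0.887 and 1.98, so the Bdnf peaks that both libraries called were within the usual range. The source of the imbalance was not tested.

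**Figure D3:**
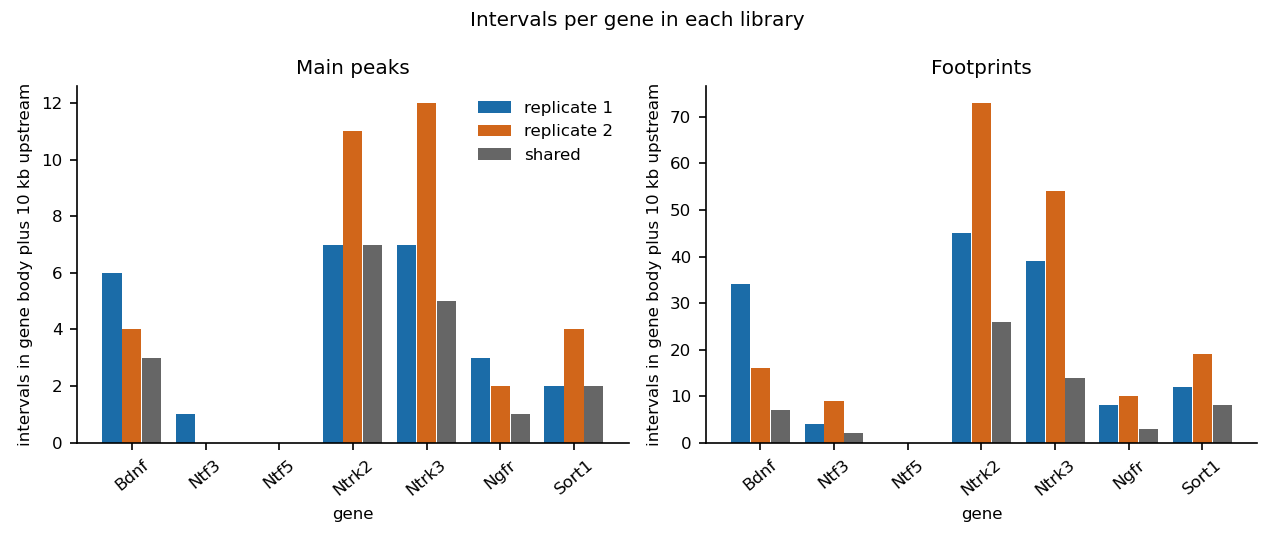
Bars count main peaks (left) and footprints (right) in the gene body plus 10 kb upstream of each gene, for replicate 1, replicate 2 and the replicate 1 intervals shared with replicate 2. Bdnf is higher in replicate 1 for both measures, 6 to 4 peaks and 34 to 16 footprints. Ngfr and Ntf3 have more main peaks in replicate 1 but more footprints in replicate 2. Ntrk2, Ntrk3 and Sort1 have more of both in replicate 2.

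The other neurotrophin genes were nearly bare. Ntf3, on chromosome 6, had start sites at 126166910, 126166715 and 126164960, and no peak, hotspot, footprint or listed base lay within 1 kb of them. Its 1 main peak, in replicate 1 alone, lay 58400 bp from the nearest start site, in the intron before the coding exon (chr6:126106537-126106665), with a density of 0.942 at percentile 23.8. The read-derived run called this site in both libraries, with densities of 0.984 in replicate 1 and 0.525 in replicate 2. The site held 2 shared footprints, with common bases only from 126106598 to 126106602 and from 126106620 to 126106621. Ntf5, on chromosome 7 with start sites at 45413695 and 45413904, had no peak in any list and no footprint in the lists compared between the libraries. The libraries shared 1 weak hotspot upstream of Ntf5, with −log10 FDR 1.75 in replicate 1 and 1.60 in replicate 2.

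Ntrk2, which encodes TrkB, had 7 shared main peaks and 26 shared footprints over a span of 337 kb, the most of the 7 genes on both counts. Its 15 shared hotspots were fewer than the 18 of Ntrk3. Per 10 kb this was 0.207 shared peaks, at the 49.9 percentile of protein-coding genes. The 1st promoter group holds starts at 58806569, 58806590 and 58806639. Its peak covered the first start, with a density of 4.22 in replicate 1, at percentile 84.0, and 2.53 in replicate 2, at percentile 83.9. The 2nd group holds starts at 58807697, 58807878, 58808281 and 58808691. Its peak over the first of these had a density of 4.73 in replicate 1, at percentile 86.0, and 3.71 in replicate 2, at percentile 90.3. A weaker peak over the last start of the group had densities of 1.67 in replicate 1 and 1.07 in replicate 2. Both libraries were thus strongly open at both groups, and in replicate 2 a single hotspot of 2711 bp covered them.

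The longest shared footprint of the 1st Ntrk2 promoter runs from 58806517 to 58806547, ending 22 bp before the start site, and is the second capital run of the Ntrk2 promoter sequence. The 2nd group had shared footprints just before its own first start as well, one ending at 58807693. The start sites at 58835815, of a retained-intron transcript, and at 58871735, of a transcript marked for nonsense-mediated decay, had no interval or listed base within 1 kb in either library.

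The other 4 shared Ntrk2 peaks lay far inside the gene, over 200 kb from the promoters, in introns 13, 14 and 16 of the transcript that starts at 58807697. TrkB is made in a full-length form with a kinase domain and in truncated forms without it, and a truncated form is known in astrocytes. The strongest in replicate 1 was chr13:59092781-59093000 in intron 16, with a density of 3.61 in replicate 1, at percentile 80.7, and 2.09 in replicate 2, at percentile 79.7. The other intron 16 site, starting at 59073661, had a density of 2.87 in replicate 1 and 2.29 in replicate 2. The intron 13 site had a density of 2.46 in replicate 1, at percentile 71.3, and 2.54 in replicate 2, at percentile 83.9. The intron 14 site, starting at 59041015, had a density of 1.59 in replicate 1 and 1.39 in replicate 2. All 4 sites were above the median density of both lists. The nearest start site of any annotated gene was not that of Ntrk2 at these 4 sites but of Gm34245 or the antisense gene 4930415C11Rik, at distances between 4381 and 66611 bp from the centre of the site.

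The intron 13 sequence holds 3 copies of the E-box CACGTG, the motif of USF-type and other basic helix-loop-helix factors, at 59011591, 59011677 and 59011735. Only the middle copy overlaps the shared footprints, by 3 bases. The intron 16 sequence holds GTTGCC, a short motif of RFX factors, at 59092856 with all 6 bases in a shared footprint. The same 6 letters stand at 59041095 in the intron 14 site, with 5 bases in a shared footprint. GTTGCC was searched only after the sequences had been seen. Replicate 2 alone called a main peak in intron 16 starting at 59080016, with a density of 1.42 at percentile 67.3, where the read-derived run had a peak in both libraries. It also alone called one in intron 2 starting at 58809961, with a density of 1.06 at percentile 52.6.

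Ntrk3, which encodes TrkC and is the longest of the genes with a span of 572 kb, had 5 shared main peaks, or 0.0874 per 10 kb, at the 39.0 percentile. Of its 11 promoter groups the open one is the start at 78718220 of a processed transcript without a coding sequence. The peak began 41 bp upstream of this start, with a density of 1.85 in replicate 1, at percentile 61.1, and 1.69 in replicate 2, at percentile 73.5. The CpG ratio there was 0.239, and the sequence of the peak holds 2 copies of TTGGCA, a short motif of NFI factors, at 78718299 and 78718399. Neither copy overlaps a shared footprint.

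The start sites of 5 of the 6 protein-coding transcripts of Ntrk3 fall in 1 group, with starts at 78578698, 78578408, 78578403, 78577982, 78577975, 78577789 and 78577783. No main peak was shared there. Replicate 2 had a main peak starting at 78579663, upstream of the group, with a density of 1.17 at percentile 57.8, and replicate 1 had none. The read-derived run covered the coding start site at 78578408 with a density of 1.60 in replicate 1, at percentile 61.3, and placed a peak 25 bp downstream of it with a density of 0.771 in replicate 2, at percentile 33.5. The smallest FDR within 1 kb of the group was 0.000599 in replicate 1 and 0.000419 in replicate 2. Replicate 1 thus had a base past 0.001 without a main peak. Hotspots covered all 7 starts in both libraries, with −log10 FDR 7.65 in replicate 1 and either 5.64 or 9.80 in replicate 2. Cleavage at the coding promoter of Ntrk3 was spread widely rather than gathered in 1 strong peak. The antisense gene Gm9885 starts 53 bp from the centre of one of these sites, and its share of the cleavage cannot be told apart.

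Away from start sites, the strongest shared Ntrk3 site lay in the last exon of the transcript that starts at 78578408, the peak in replicate 1 at chr7:78191001-78191260, with a density of 1.95 in replicate 1, at percentile 63.2, and 1.25 in replicate 2, at percentile 61.4. The other shared sites ranked below the median density of both lists. The site starting at 78731558 had a density of 0.823 in replicate 1, at percentile 16.6, and 0.995 in replicate 2, at percentile 48.7. The site starting at 78719248 had 0.704 in replicate 1, at percentile 10.3, and 0.790 in replicate 2, at percentile 34.4. The one starting at 78661052 had 0.791 in replicate 1, at percentile 14.8, and 0.527 in replicate 2, at percentile 13.1. The starts at 78658109 and 78657724 had a looser-list peak with a density of 0.422 and a weak hotspot with −log10 FDR 1.51 in replicate 1, and nothing in replicate 2. Replicate 1 alone called 2 further Ntrk3 sites and replicate 2 alone called 7. The remaining starts, at 78738012, 78738010, 78623342, 78571891, 78452123, 78377822, 78356133, 78261887 and 78192743, had no peak, hotspot, footprint or listed base within 1 kb in either library.

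**Figure D4:**
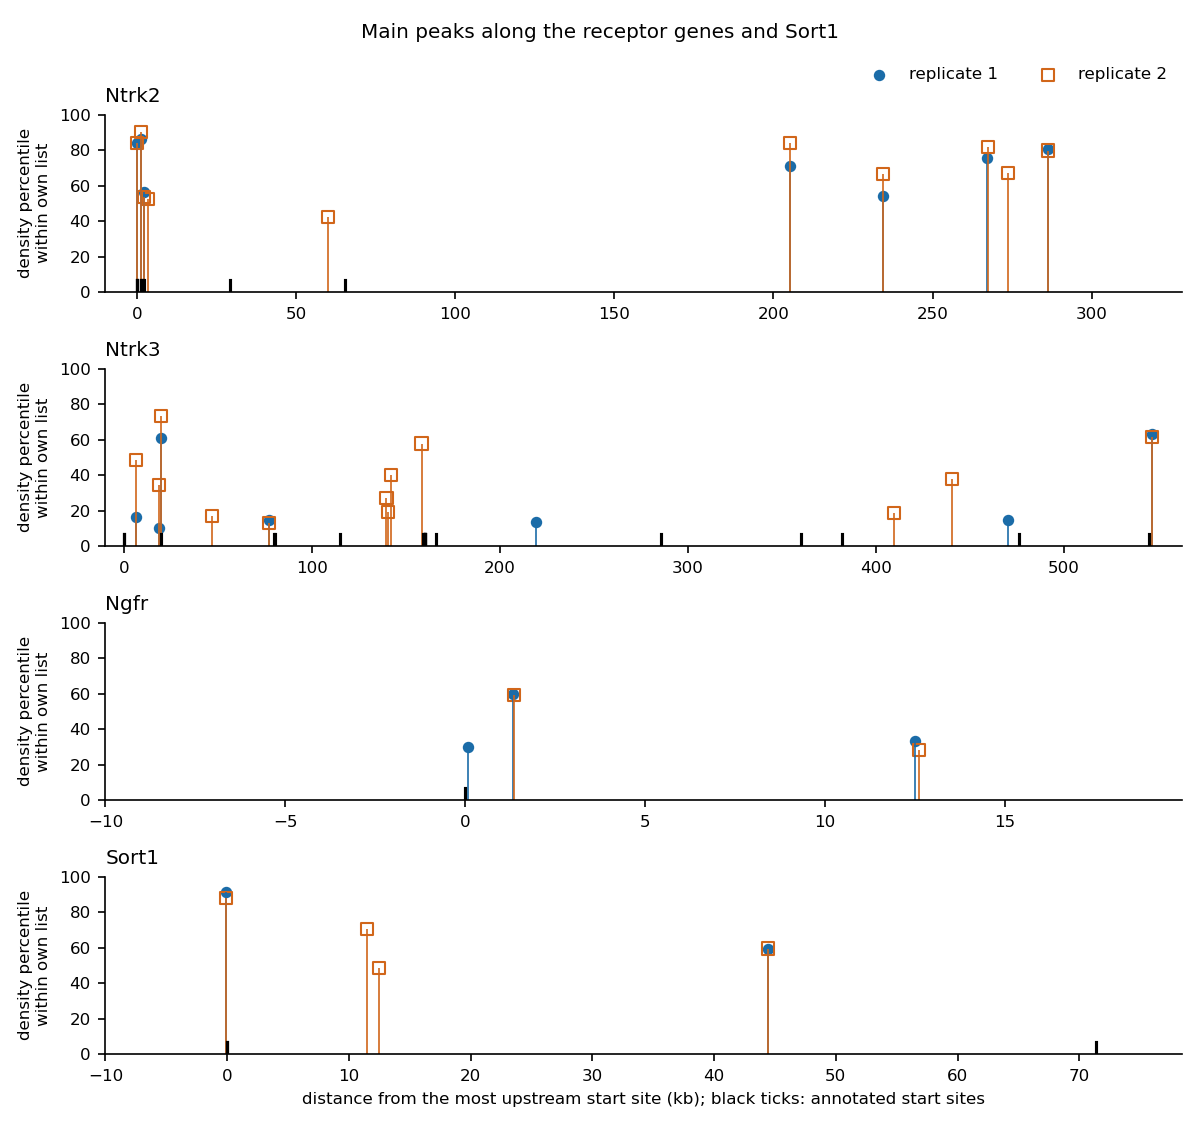
Each symbol is a site with a main peak, placed by its distance in kb from the most upstream start site of the gene and by the percentile of its density within its own list, with filled circles for replicate 1, open squares for replicate 2 and black ticks for annotated start sites (the strongest peak is drawn where a site has more than 1). Ntrk2 has its higher sites at its promoters and from 205 to 286 kb, with few between them. Ntrk3 has mostly lower sites scattered along it, and Sort1 has 1 strong site at its promoter.

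Ngfr, on chromosome 11, has 1 start site, at 95587735. A main peak next to it was called in replicate 1 alone, 52 bp away, with a density of 1.05 that ranked below the median of its list. Replicate 2 had no peak of either run, hotspot, footprint or listed base within 1 kb. The site shared by both libraries lay 1327 bp into the gene, in intron 1, with a density of 1.81 in replicate 1, at percentile 60.0, and 1.20 in replicate 2, at percentile 59.2. Its 3 shared footprints, counted in replicate 1, include the neighbouring capital runs of the Ngfr sequence, from 95586401 to 95586411 and from 95586413 to 95586430. In replicate 2 a single footprint, from 95586400 to 95586430, covers both runs. Farther in, in intron 3, the libraries had main peaks that lay side by side without overlapping, with densities at percentile 33.1 in replicate 1 and 28.4 in replicate 2.

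Sort1 had the densest promoter peak of the 7 genes in replicate 1, while in replicate 2 the 2nd Ntrk2 group was denser. The Sort1 peak ended 2 bp before the start site at 108284082 and 11 bp before the one at 108284091. Its density was 6.69 in replicate 1, at percentile 91.5, and 3.22 in replicate 2, at percentile 88.2. The ratio of 2.08 between the libraries was above the 95th percentile of all shared peaks. The start at 108355467, of a retained-intron transcript, had no interval or listed base within 1 kb in either library. The shared site in intron 6 had a density of 1.78 in replicate 1, at percentile 59.2, and 1.21 in replicate 2, at percentile 59.5. The short NFI motif TTGGCA at 108328519 lies fully within its shared footprint from 108328517 to 108328537. Replicate 2 alone called a main peak in intron 1, starting at 108295452, with a density of 1.55 at percentile 70.6. The read-derived run had that site in both libraries, with 2 shared footprints.

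Over all 7 genes, 38 sites held a main peak, of which 18 were shared. Of the rest, 7 were of replicate 1 alone and 12 of replicate 2 alone, while 1 had a peak of each library without overlap. Counted as main peaks of replicate 1, 18 of 26 in the spans were shared, beside 31722 of 39608 genome-wide. Of the sites with main peaks in 1 library or without overlap, 12 were shared in the read-derived run. Of the 18 shared sites, 12 had their centre in an intron, 5 in an exon and 1 upstream, and 11 lay beyond 1 kb of any start site of their own gene. A shared main peak was present in 5 of the 7 genes, beside 64.1% of protein-coding genes. A shared hotspot was present in all 7, beside 73.2%, and a shared footprint in 6, beside 67.1%. The spans held 52 shared hotspots and 60 shared footprints in all.

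Promoter composition was set beside these calls, because most promoters open in both libraries are CpG-rich. The CpG ratio is the observed over the expected number of CpG in 500 bp to each side of the first start of a group. Of groups with a ratio over 0.75, 2 of 3 were open among the 7 genes and 88.5% among all protein-coding genes. Between 0.5 and 0.75, 3 of 10 were open among the 7 genes and 69.6% among all. In the read-derived run 7 of these 10 were open, and 75.1% of all. Between 0.25 and 0.5, 0 of 5 were open among the 7 genes and 14.1% among all, and up to 0.25, 1 of 11 and 3.00%. Bdnf supplied 6 of the 10 groups between 0.5 and 0.75, with ratios between 0.541 for exon III and 0.685 for exon VI, and exon IV was just below that class at 0.496. These start sites are neighbours and do not count as independent.

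**Figure D5:**
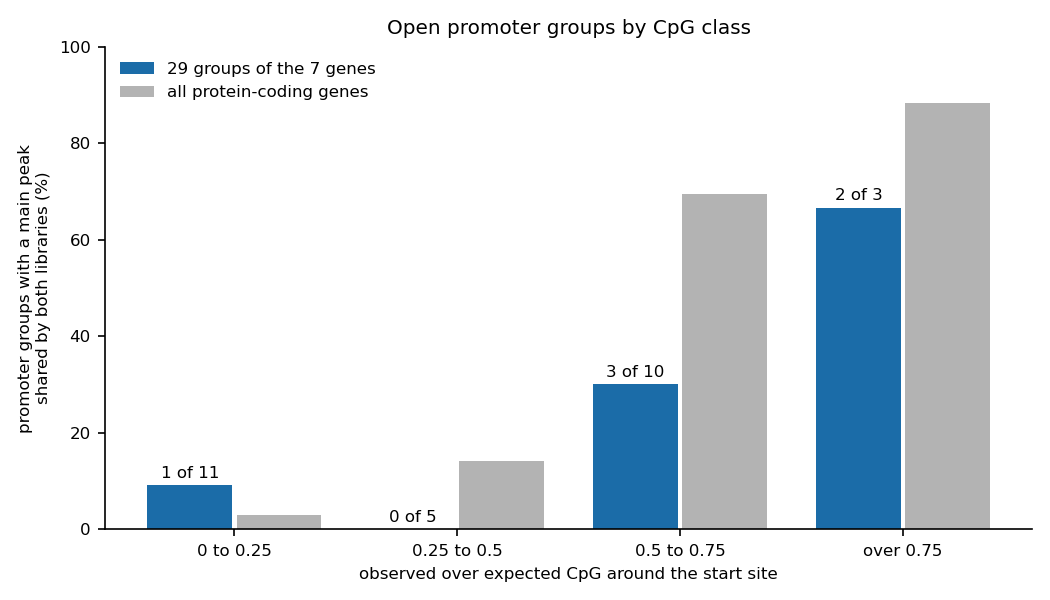
Bars give the percentage of promoter groups with a main peak shared by both libraries in 4 classes of observed over expected CpG, blue for the 29 groups of the 7 genes (with counts above the bars) and grey for all protein-coding genes. In the class from 0.5 to 0.75 the 7 genes have 3 of 10 open beside 69.6% of all groups.

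Motifs were counted on both strands in 300-bp windows centred on the 18 shared peaks of the 7 genes and on all 31722 shared peaks. The GC box was found in 11 of 18 (61.1%), beside 42.1% of all, and the short NFI motif in 5 of 18 (27.8%), beside 19.5%. The short CRE motif TGACG was found in 4 of 18 (22.2%), beside 24.3%, and the full CRE, TGACGTCA, in 0 of 18, beside 2.13%. The CCAAT box was found in 6 of 18, beside 33.7%, and the SOX motif ACAANG in 6 of 18, beside 37.0%. The E-box CACGTG was found in 1 of 18, beside 8.97%, and the AP-1 motif TGANTCA in 1 of 18, beside 7.08%. The EGR motif GCGNGGGCG and the longer CTCF and REST patterns were found in 0 of 18, beside 6.90%, 0.0441% and 0.498%. Of the motifs added later, the 12-letter CTCF pattern was found in 1 of 18, beside 9.97%, and GTTGCC in 3 of 18, beside 15.2%. In the promoters, read as 250 bases before to 50 after the first start of a group, the 12-letter CTCF pattern was found in 1 of 29, that of Bdnf exon IV, beside 2.31% of all. With 18 windows these shares are coarse, and a GC box overlaps part of the EGR motif.

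The genes most like Bdnf by the rule used were Rnf10, Arhgap27 and Pigb, out of 388 genes with a similar span and 7 to 9 promoter groups. Likeness was the difference in open groups and then in shared peaks per 10 kb, over these 2 libraries. All 3 had 2 open groups, and 0.482, 0.474 and 0.466 shared peaks per 10 kb. Of the 388 genes, 104 had as many open groups as Bdnf, 26 had more and 258 had fewer. In the read-derived run Rnf10 and Pigb again had 2 open groups and Arhgap27 had 3, against 7 in Bdnf. Since no other gene gained as many groups there, any gene matched on open groups had to have fewer.

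The wider neurotrophin pathway was read through lists of genes with at least 1 open promoter group, to be set against the 54.7% of all protein-coding genes. Among receptors, the relatives of Sort1 named Sorcs1, Sorcs2, Sorcs3 and Sorl1 each had one. Their spans held 2, 6, 7 and 5 shared main peaks. Per 10 kb this was 0.0367, 0.153, 0.115 and 0.295, beside a median of 0.209 for protein-coding genes. All 16 adaptors and effectors that act below Trk receptors had an open promoter, among them Shc1 with 3 open groups of 4, Grb2 with 2 of 2 and Shc3 with 1 of 2. Of 9 symbols for partners of Ngfr, 8 were matched (the other, Ngfrap1, is an older name of Bex3), and 6 had an open promoter, namely Maged1, Traf6, Bex3, Lingo1, Arhgdia and Ripk2. In the read-derived run 5 had one, without Bex3. Rtn4r, the Nogo receptor, and Bex1 had none, and Lingo1 had 10 shared main peaks in its span. Of 10 genes for cleavage and release of proneurotrophins, 5 had an open promoter, namely Furin, Pcsk5, Pcsk7, Plat and Cpe. Pcsk6, Plg, Mmp9, Mmp3 and Cadps2, which encodes a factor of BDNF release, had none. In the read-derived run Mmp9 had one as well, for 6 in all. Among known regulators of Bdnf, an open promoter was found at Creb1, Npas4, Usf1, Usf2, Rest, Mef2c, Mef2d, Hdac2 and Crtc1. Npas4, an activity-induced transcription factor, had 3 shared main peaks in its span.

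Markers of the tissue were checked in the same way, again to be set against 54.7% of all protein-coding genes in the main lists. No such share by gene was taken for the read-derived run, so its counts of marker and pathway genes stand alone. Of 8 cortical and excitatory neuron markers 5 had an open promoter in the main lists and 7 in the read-derived run. Interneuron markers had 2 of 6 in the main lists and 4 in the read-derived run, and astrocyte markers had 1 of 5 and 2. Microglial markers had 1 of 5 in the main lists and 0 in the read-derived run. Oligodendrocyte lineage markers had 3 of 5, striatal markers 2 of 4, and endothelial or mural and hindbrain markers 0 of 4 each, in both. Replicate 1 had 39608 main peaks genome-wide and replicate 2 had 45915.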

How the data were processed

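DNase-seq intervals were deposited for each library, not for pooled libraries. Peaks carry a cleavage density deposited by the authors, a depth-normalised signal without a p-value, and hotspots carry a deposited −log10 FDR. The per-base tracks deposited by the authors hold an FDR (an adjusted p-value) for bases under 0.05, and the footprint lists hold 0.01 in every line, read here as a p-value or FDR threshold and not as a value per footprint. A pair of further footprint lists of replicate 2, deposited by the authors, gives positions and no other measurement. Files are on mm10, per the labels. Aligner, callers and versions: not given in the sources used here. A possible bias of mapping towards the C57BL/6J allele of the cross was not examined.

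As main list served the one in which every peak holds a base at FDR 0.000982 or lower in replicate 1 and 0.000995 or lower in replicate 2, the looser list the one at 0.0499 in both. These limits were inferred from the tracks. Main peaks of a list can overlap each other, and each was counted. Percentiles are ranks within a list. A shared interval is a replicate 1 interval that overlaps a replicate 2 interval by at least 1 bp. Relative depth was the ratio of the smallest steps of density, of which all low values were whole multiples (tolerance 0.05 of a step). Absolute depth is unknown. Sequences are RefSeq GRCm38.p6, and annotation is GENCODE vM21.

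All 7 genes and every promoter group are named, with the 3 strongest shared peaks of each gene outside promoter groups, single-library peaks above the median of their list, pathway genes (all genes of lists of 10 or fewer, otherwise those without an open group) and the 3 genes most like Bdnf. Some genes of the pathway lists are not reported here. Shc1, Grb2 and Shc3 were named after their values were seen. The members, lists and motifs were chosen with earlier results of these data known, and the shorter CTCF pattern and GTTGCC after the sequences were seen. No test was run, since the labels give 1 group. Overlap procedures were tested on simulated data. Alternatives were other peak lists, equal list size, windows of 500 and 2500 bp, 50% reciprocal overlap, other spans, other promoter definitions and each library left out. Python 3.11.15, numpy 2.4.6, pandas 2.3.3, pysam 0.24.0, bedtools 2.31.1 and matplotlib 3.10.9 were used.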

Additional observations from a re-analysis of the deposited data

Results flagged for a closer look

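Further footprint lists of replicate 2, with no counterpart in replicate 1, also showed signal in the 7 spans, outside the shared counts. One held 254 footprints there and the other 101, beside 181 in the list used for comparison. Ntf5, with no footprint in the lists compared, had 4 in the first and 1 in the second.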

How the results depend on the processing

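The count of open promoter groups, 6 of 29 in all and 2 of 8 in Bdnf, depended mainly on the peak list. It was 11 in all and 6 in Bdnf with the looser list, 12 and 7 with the smaller read-derived list, and 12 and 7 with the larger one. It was 11 and 5 with a window of 2500 bp, and 13 of 46 in all with each start site by itself. With 50% reciprocal overlap Bdnf kept 1 open group. With 1 library left out the count was between 7 and 11 in all and between 2 and 6 in Bdnf, the higher values coming from replicate 1. The stricter list and equal list size gave 6 and 2. Protein-coding transcripts alone gave 5 of 17 in all and 0 in Ntrk3. Shared peaks, 18, became 44, 41 and 56 with the looser, smaller read-derived and larger read-derived lists and 37 with 50 kb on each side, and their median per 10 kb, 0.207, became 0.415, 0.296 and 0.445. Left-out libraries gave 26 to 33 peaks and 0.207 to 0.326 per 10 kb. Shared hotspots, 52, became 84 with 50 kb on each side and 60 to 82 with a library left out. Shared footprints, 60, became 133 with 50 kb on each side, 39 with 50% reciprocal overlap, 35 inside main peaks only and 142 to 181 with a library left out. With a library left out, every interval of the remaining library was counted, since none could be required to be shared. Wider windows and wider spans can only keep or raise a count. The causes of the other shifts were not tested. Of 70 values per gene under alternatives, 43 moved by no more than the spread between libraries, or not at all. This spread was the standard deviation of the 2 single-library values. Those single-library values are themselves among the 70. No paired analysis was possible because the study has 1 group. Absolute depth is unknown, so what it limits at the weaker Bdnf starts was not tested.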
